A study of Mus musculus with 16 samples.

Results

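The mitochondrial genome transcripts are the RNAs read from the small circular chromosome of the mitochondrion (MT). They were taken as every gene of the count table placed on chromosome MT, which gave 37 of 54532 genes: 13 mRNAs, 2 ribosomal RNAs (rRNAs) and 22 transfer RNAs (tRNAs). The libraries came from gonadal white fat of female C57BL/6 mice, digested with collagenase and sorted with magnetic beads into mature adipocytes, the fat-storing cells, and preadipocytes, their precursors. The stress groups (MS) were parted from the dam daily on postnatal days 2 to 16 and weaned on day 17, while control pups (C) stayed with the dam and were weaned on day 21. On a high-fat diet there were 3 stress and 3 control adipocyte libraries and 4 stress and 4 control preadipocyte libraries; on a low-fat diet there was 1 stress and 1 control preadipocyte library. Although the title speaks of single cells, each library is 1 column of counts and was read as bulk RNA. Nothing in the labels states whether libraries of 1 group are separate mice, so the p-values below describe the spread between libraries, part of which may be technical. The sources used here name neither the antibodies of the sort nor the library kit.

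Mitochondrial DNA is transcribed by its own polymerase, Polrmt, with the factors Tfam and Tfb2m, into long RNAs that cover nearly the whole circle on each strand. These precursors are cut largely at the tRNAs that lie between the other genes, and the mRNAs are then stabilised by Lrpprc and Slirp and read by a mitochondrial ribosome whose RNAs are mt-Rnr1 and mt-Rnr2. The mRNAs encode core subunits of the respiratory complexes I, III and IV and of ATP synthase, called complex V, and every other subunit comes from the nucleus. In fat cells mitochondria burn fatty acids and supply building blocks for making fat, and in thermogenic adipocytes they also make heat.

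Of the 37 genes, 28 lie on one strand of the circle and 9 on the other: mt-Nd6 and 8 tRNAs. The mRNAs held 92.7% of the mitochondrial counts of the 16 libraries, the rRNAs 6.83% and the tRNAs 0.464%. There were 27 genes above 0 in every library. The tRNA gene mt-Td was at 0 in all 16 libraries, which allows at most 0.00918 CPM (counts per 1000000 counts) over the 326793488 counts (3 counts for a count of 0, counting error only). Neighbouring genes overlap at 9 places by 1 to 43 bases. The longest overlap joins mt-Atp8 and mt-Atp6, the ATP synthase subunits, and is shown because a read within it cannot be given to 1 of them; the capitals are the start codon of mt-Atp6 and the stop codon of mt-Atp8 at MT:7927-7969, build GRCm38.
mt-Atp8/mt-Atp6: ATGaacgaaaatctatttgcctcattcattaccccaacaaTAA
The antisense pair mt-Nd5 and mt-Nd6 shares 14 bases, and since the strand setting of the counting is not given, reads of the 2 strands cannot be told apart in the counts.

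Library totals ran from 14182130 to 23368821 counts. Control adipocyte libraries 1 and 3 sampled rare transcripts least well, with 1.15 and 0.637 genes of 1 to 5 counts for each gene of 6 to 15 counts, against 1.55 to 2.23 in the other 14 libraries. Control high-fat preadipocyte libraries 1 and 3 differed at 6.93% of genes, against 43.9 to 78.6% in the other 17 pairs within a group. They were averaged into 1 sample in each mean and exact test given here, apart from an alternative that paired libraries by replicate number. The gene-by-gene edgeR fits kept them as 2 libraries, and merging them was run as an alternative. With the pair merged, genes with an unadjusted edgeR p under 0.05 went from 1010 to 496 for stress in preadipocytes. For diet they went from 3063 to 2456, and 0 genes were called either way in both comparisons. The mature adipocyte markers, such as Adipoq, summed to 20467 to 64294 CPM in adipocyte libraries and 504 to 855 in high-fat preadipocyte libraries, and progenitor markers such as Pdgfra to 568 to 1285 in adipocyte libraries and 5081 to 11402 in high-fat preadipocyte libraries. Each marker list was thus high in the fraction that its label names. Markers of other cell types were present too: endothelial markers summed to 398 to 2125 CPM in adipocyte libraries and 178 to 755 in high-fat preadipocyte libraries, and macrophage markers to 1852 to 7131 CPM in adipocyte and 1129 to 6556 CPM in high-fat preadipocyte libraries. Their part in the results below was not tested.

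Mature adipocytes gave a far larger part of their counts to the mitochondrial genome than preadipocytes did. The share was 7.41, 10.3 and 7.62% in the stress adipocyte libraries and 6.24, 8.43 and 11.2% in the control adipocyte libraries. It was 2.42, 1.73, 1.35 and 1.45% in the stress high-fat preadipocyte libraries and 2.20, 2.39, 2.10 and 2.07% in the control ones. The lowest adipocyte library stood above the highest preadipocyte library. The share averaged 8.54 ± 1.89% in adipocytes (SD, n = 6) and 1.94 ± 0.432% in high-fat preadipocytes (SD, n = 7), a ratio of 4.41 (two-sided exact permutation test, p = 0.001166, the smallest this design can give, and 0.0187 after Benjamini-Hochberg adjustment over 16 such tests). Within the control libraries the difference was 6.43 percentage points and within the stress libraries 6.71, with p = 0.1 and p = 0.0571 in exact permutation tests, each the smallest these smaller sets allow. In bulk samples more cells of a type and more RNA per cell cannot be told apart. RNAs that stay in the nucleus went the other way between the fractions: of 5 tested, 4 were called lower in adipocytes by edgeR and 0 higher. Over the 18194 genes tested, 34.8% were called lower and 27.7% higher. The median log2 fold change of the 5 was -2.56, with Malat1 at -2.68 ± 0.44 and Meg3 at -6.81 ± 0.56. The 5 summed to 167 to 912 CPM in adipocytes and 2063 to 5041 CPM in high-fat preadipocytes. Their part in the mitochondrial share was not tested.

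**Figure D1:**
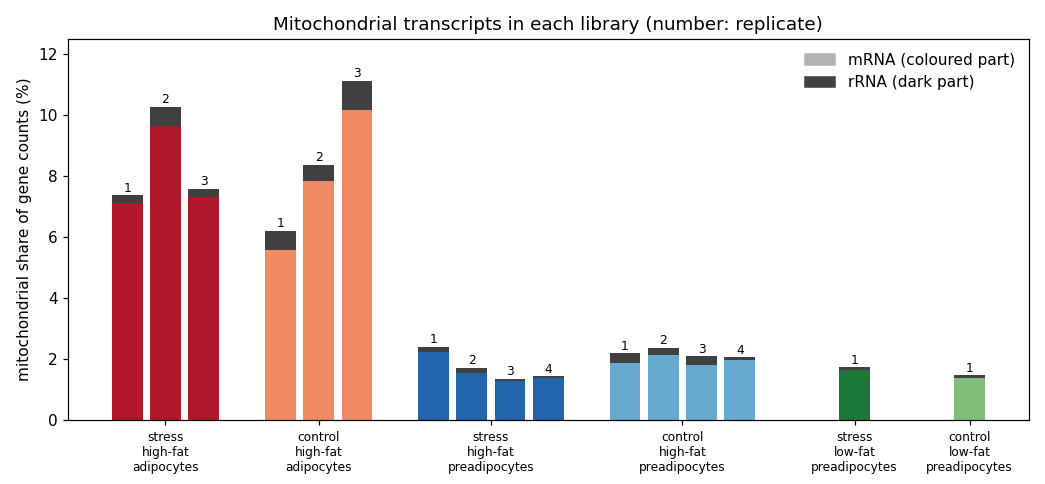
Share of gene counts from the mitochondrial genome in each of the 16 libraries (%), stacked as mRNA (coloured) and rRNA (dark), with the replicate number above each bar; the tRNA part is too small to draw. The 6 adipocyte bars stand between 6.24 and 11.2%, and the 8 high-fat preadipocyte bars between 1.35 and 2.42%.

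Gene by gene, 30 of the 37 members passed the filter on low counts in the comparison of adipocytes with preadipocytes, and these 30 were called higher in adipocytes by edgeR's quasi-likelihood test at an adjusted p of 0.05. Over the 18194 genes tested, 27.7% were called higher and 34.8% lower. The other 7 members, the tRNAs mt-Tf, mt-Tv, mt-Ta, mt-Ts1, mt-Td, mt-Tk and mt-Tt, held at most 73 counts each over the 16 libraries and were not tested. Of the 30, mt-Atp8, mt-Ti, mt-Tq and mt-Tm did not pass the filter when high-fat preadipocyte libraries were tested alone. They entered through their adipocyte counts, so their direction was partly set by the filter, and they are included in the values that follow. The median log2 fold change of the 30 was 2.69, and that of the genes tested was -0.24. Every adipocyte library lay above every high-fat preadipocyte library for 22 of the 30, a pattern seen in 17.4% of genes tested, while 0 members lay below throughout, against 18.8% of genes.

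**Figure D2:**
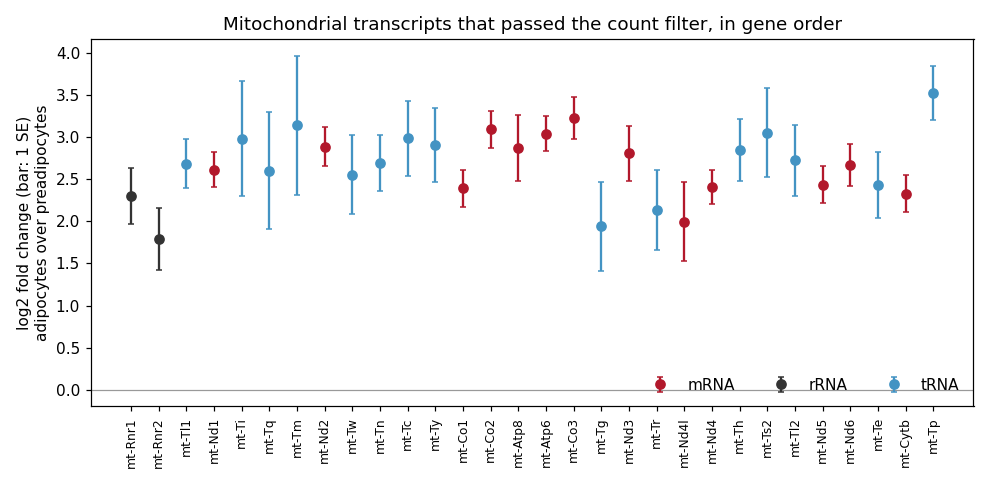
Log2 fold change of adipocytes over preadipocytes for the 30 mitochondrial genes that passed the count filter, in the order of the genes on the circle; points are edgeR estimates and bars 1 SE. The values run from 1.79 for mt-Rnr2 to 3.52 for mt-Tp.

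Complex I, which takes electrons from NADH, has 7 mitochondrial subunits, and the mRNAs of the 7 rose in adipocytes. mt-Nd1, a subunit near the ubiquinone site, had 9373, 12113 and 19467 CPM (lowest, median and highest library, scaled with TMM factors) in adipocytes and 1524, 2111 and 2628 in high-fat preadipocytes. Its log2 fold change was 2.62 ± 0.21 (SE) with an adjusted edgeR p of 5.39e-08. For mt-Nd2, one of the proton-pumping subunits, the values were 7814, 9541 and 13354 CPM in adipocytes and 848, 1377 and 2022 CPM in preadipocytes, and the log2 fold change was 2.89 ± 0.23. The related pumping subunits mt-Nd4 and mt-Nd5 changed by 2.41 ± 0.20 and 2.44 ± 0.22 on the log2 scale, with 5733 to 8844 and 4006 to 9690 CPM in adipocytes against 808 to 1767 and 852 to 1701 CPM in preadipocytes. In none of these 4 genes did the fractions overlap. mt-Nd6, the 1 mRNA of the other strand, had 1542 to 4156 CPM in adipocytes and 214 to 608 CPM in preadipocytes and a log2 fold change of 2.67 ± 0.25. The short mRNA mt-Nd3 had 30.8 to 87.1 CPM in adipocytes and 2.56 to 10.4 CPM in preadipocytes, a log2 fold change of 2.81 ± 0.33.

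mt-Nd4l, which encodes another small complex I subunit, changed least among the mRNAs and was the 1 mRNA whose fractions overlapped. It had 13.7, 22.9 and 14.1 CPM in stress adipocytes and 5.85, 15.5 and 16.2 CPM in control adipocytes. The stress preadipocytes had 2.93, 2.87, 1.78 and 1.39 CPM and the control high-fat preadipocytes 15.01, 3.23, 3.87 and 2.96 CPM. The overlap came from control preadipocyte library 1, with 377 counts of mt-Nd4l against 95 in library 3, its near-identical partner. Over the fractions the log2 fold change was 2.00 ± 0.47 (edgeR, adjusted p = 0.00158), and within the control libraries alone it was 0.96 with an adjusted p of 0.234.

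mt-Cytb, the 1 mitochondrial subunit of complex III, had 11278, 12493 and 20601 CPM in adipocytes and 1833, 2686 and 3790 CPM in high-fat preadipocytes (lowest, median and highest). Its log2 fold change was 2.33 ± 0.22, with an adjusted edgeR p of 2.87e-07. mt-Co1, which holds the site where complex IV reduces oxygen, had 25170 to 61129 CPM in adipocytes and 5590 to 8937 CPM in preadipocytes, a log2 fold change of 2.39 ± 0.22 and thus 5.25-fold. The adipocyte libraries again lay above the preadipocyte libraries without overlap. The other complex IV mRNAs, mt-Co2 for the subunit that receives electrons from cytochrome c and mt-Co3 for a further core subunit, rose by 3.09 ± 0.22 and 3.23 ± 0.25 on the log2 scale. The ATP synthase mRNAs mt-Atp6, for the subunit that carries protons through the membrane, and mt-Atp8, for a small membrane subunit, rose by 3.04 ± 0.21 and 2.87 ± 0.39. mt-Atp8 rests on few reads: 28 to 59 counts per adipocyte library and 3 to 11 per high-fat preadipocyte library.

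**Figure D3:**
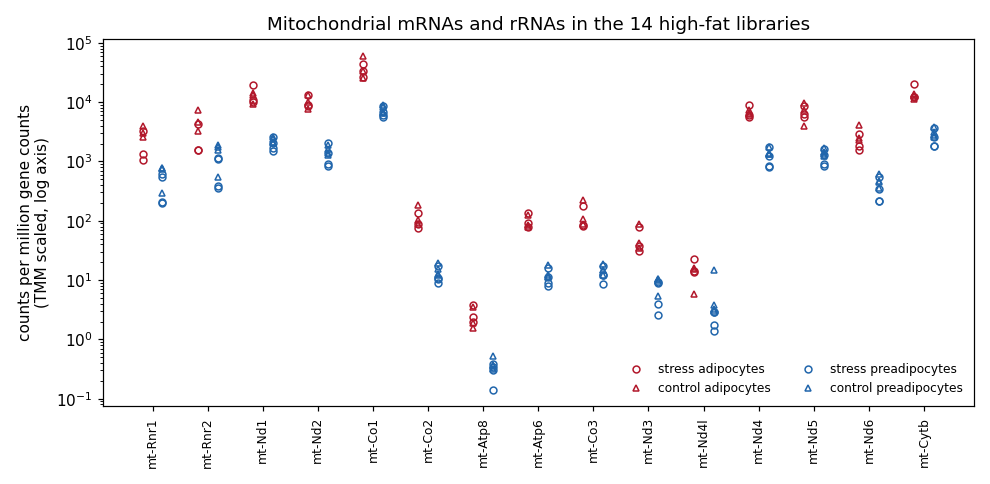
CPM of the 13 mitochondrial mRNAs and 2 rRNAs in each of the 14 high-fat libraries on a log axis, in gene order; adipocytes are drawn to the left of preadipocytes, with circles for stress and triangles for control. In mt-Rnr2 and mt-Nd4l the fractions overlap, and 6 mRNAs from mt-Co2 to mt-Nd4l lie far below the other 7.

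Both rRNAs rose in adipocytes. mt-Rnr1, the RNA of the small ribosomal subunit, had 1347, 3225 and 1061 CPM in stress adipocytes and 3036, 2607 and 4003 CPM in control adipocytes, against 200 to 617 CPM in stress and 295 to 780 CPM in control high-fat preadipocytes. mt-Rnr2, the RNA of the large subunit, had 1541, 4220 and 1579 CPM in stress adipocytes and 4643, 3303 and 7484 CPM in control adipocytes, against 353 to 1157 CPM in stress and 539 to 1900 CPM in control preadipocytes. The log2 fold changes between the fractions were 2.30 ± 0.33 for mt-Rnr1 and 1.79 ± 0.37 for mt-Rnr2 (edgeR, adjusted p = 2.24e-05 for mt-Rnr1 and adjusted p = 0.000539 for mt-Rnr2). For mt-Rnr2, both low stress adipocyte libraries lay within the range of the preadipocytes. As a part of all mitochondrial counts, the rRNAs made 6.30 ± 2.61% in adipocytes (SD, n = 6) and 7.77 ± 3.66% in preadipocytes (SD, n = 7), a difference of -1.47 percentage points within the spread (two-sided exact permutation test, p = 0.430). It was -0.914 and -0.913 points without stress adipocyte libraries 1 and 3 and -2.22 points without control adipocyte library 1, and -2.93 points without control adipocyte libraries 1 and 3, an alternative chosen after seeing the data.

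Among the tRNAs, mt-Tp, mt-Tc and mt-Tn, which carry proline, cysteine and asparagine, had the highest mean CPM. All 3 lie on the strand of mt-Nd6. They are printed 5′ to 3′ with the anticodon in capitals, at MT:15356-15422, MT:5192-5257 and MT:5089-5159 on the minus strand of GRCm38, since they show how short the counted genes are.
mt-Tp: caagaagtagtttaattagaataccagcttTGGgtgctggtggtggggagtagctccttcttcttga
mt-Tc: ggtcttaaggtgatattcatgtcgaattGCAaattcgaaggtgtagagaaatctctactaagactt
mt-Tn: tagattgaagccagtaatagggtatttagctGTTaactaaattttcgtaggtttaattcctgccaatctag
mt-Tp had 375, 374 and 173 CPM in stress adipocytes and 194, 324 and 873 CPM in control adipocytes, against 20.3 to 45.0 CPM in stress and 29.1 to 46.4 CPM in control high-fat preadipocytes. Its log2 fold change of 3.52 ± 0.32 was the largest of the 30 members (11.5-fold, edgeR, adjusted p = 1.84e-07). mt-Tc changed by 2.98 ± 0.44 and mt-Tn by 2.69 ± 0.33, and the 15 tRNAs tested ran from 1.94 for mt-Tg to 3.52. The genes are 59 to 75 bases long, so a count can come from a longer precursor that crosses them, and mature tRNA cannot be told apart from it.

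The tRNAs made 0.528 ± 0.206% of mitochondrial counts in adipocytes (SD, n = 6) and 0.301 ± 0.0288% in high-fat preadipocytes (SD, n = 7). The ranges met at their ends, 0.329 to 0.905% in adipocytes and 0.254 to 0.335% in preadipocytes, and the difference passed a two-sided exact permutation test (p = 0.00233, 0.0187 after adjustment over 16 tests). Within the control libraries the difference was 0.312 percentage points and within the stress libraries 0.141 points, and neither passed (exact permutation p = 0.1 and 0.114). The tRNA part rests largely on mt-Tp, which had 3429 to 10150 counts in adipocyte and 412 to 1043 in high-fat preadipocyte libraries. The next tRNA, mt-Tc, had 479 to 2446 counts in adipocyte and 78 to 268 in high-fat preadipocyte libraries.

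Levels of different mRNAs can be set side by side only per length. On the deposited FPKM scale (fragments per kilobase of gene, scaled to depth), mt-Co1 came first, with a median of 19583 FPKM in adipocytes and 4440 FPKM in high-fat preadipocytes. mt-Nd1, at 11516 FPKM in adipocytes and 2211 FPKM in preadipocytes, and mt-Cytb, at 10605 FPKM in adipocytes and 2354 FPKM in preadipocytes, followed and overlapped each other in range. mt-Nd2, mt-Nd4, mt-Nd6 and mt-Nd5 had medians of 8365, 4529, 4424 and 3369 FPKM in adipocytes and 1330, 967, 783 and 725 FPKM in preadipocytes. The rRNAs had medians of 2862 FPKM for mt-Rnr1 and 2286 FPKM for mt-Rnr2 in adipocytes and 615 and 725 FPKM in preadipocytes, where mt-Rnr2 had the same rounded median as mt-Nd5 and the 2 overlapped. A drop then separated mt-Co2, mt-Atp6, mt-Co3, mt-Nd3 and mt-Nd4l, at 136, 123, 121, 107 and 45.2 FPKM in adipocytes and 17.9, 16.7, 17.3, 26.3 and 9.94 FPKM in preadipocytes. mt-Atp8 came last, at 9.72 FPKM in adipocytes and 1.73 FPKM in preadipocytes.

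The 5 low mRNAs are the ones that the nuclear genome repeats almost letter for letter. The annotation lists 7 pseudogenes side by side on the minus strand of chromosome 1 (1:24611535-24616197, GRCm38): Gm28439, Gm10222, Gm28438, Gm28437, Gm10925, Gm28661 and Gm29216. With at most 0.5% mismatches they covered 99.6% of mt-Co2, 99.6% of mt-Atp6, 99.9% of mt-Co3, 99.1% of mt-Nd3 and 99.0% of mt-Nd4l, and also 63.6% of mt-Nd4 and 31.3% of mt-Co1. The 5 covered mRNAs had 8101 to 20237 counts per kilobase of gene, summed over the 16 libraries, and the 7 with partial or no cover had 530618 to 3409240. mt-Atp8, with 1588 counts per kilobase, had no annotated copy among the matches kept. It lies where the copies of mt-Co2 and mt-Atp6 leave a gap of 233 bases on chromosome 1, against 230 bases between the same genes on MT. The sources used here do not say how reads matching more than 1 place were counted, and its part in these levels was not tested.

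**Figure D4:**
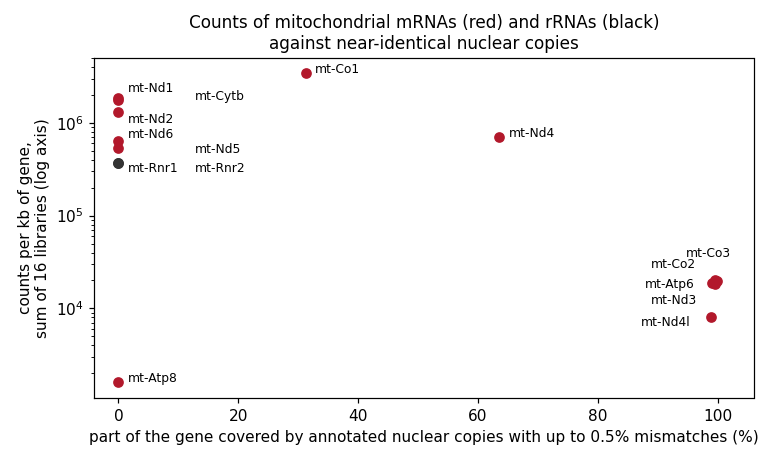
Counts per kilobase of each mitochondrial mRNA (red) and rRNA (black), summed over the 16 libraries on a log axis, against the part of the gene (%) covered by annotated nuclear copies with at most 0.5% mismatches. The 5 mRNAs at 99.0 to 99.9% lie between 8101 and 20237 counts per kilobase, and mt-Atp8 is the 1 low gene with no annotated copy among the matches kept.

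Of the 7 copies on chromosome 1, 5, Gm10925, Gm28661, Gm28437, Gm28439 and Gm10222, matched their mitochondrial genes at every aligned base, and Gm28438 and Gm29216 did not. The start of mt-Nd3 and of Gm28438 is shown for 1 of the few differences; capitals mark the 1 base, T3C counted from the 5′ end of the gene, at which the 345 aligned bases differ. mt-Nd3 is at MT:9459-9491 on the plus strand and Gm28438 at 1:24613087-24613119 on the minus strand of GRCm38.
mt-Nd3: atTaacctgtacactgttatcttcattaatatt
Gm28438: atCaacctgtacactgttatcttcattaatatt
A diverged copy is set beside it for contrast: Gm11410 on chromosome 4 differs from mt-Cytb at 81 of 1142 aligned bases, and 7 of these, in capitals, fall in the 120 bases shown (MT:14146-14265 and 4:80003990-80004109, plus strands, GRCm38). Counted from the 5′ end of mt-Cytb, the first is G14A.
mt-Cytb: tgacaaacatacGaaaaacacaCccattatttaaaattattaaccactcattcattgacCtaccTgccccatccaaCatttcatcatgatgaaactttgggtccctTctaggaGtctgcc
Gm11410: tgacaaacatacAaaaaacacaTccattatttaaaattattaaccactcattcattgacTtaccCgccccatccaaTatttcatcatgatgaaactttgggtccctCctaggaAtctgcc
Gm11410 had 0 counts in each of the 14 high-fat libraries. Other diverged copies had counts: Gm13340, at 97.6% identity to mt-Co1, had 209 to 568 in adipocyte and 69 to 138 in high-fat preadipocyte libraries, and Gm13341, at 95.9% identity to mt-Co2, had 48 to 156 in adipocyte and 19 to 42 in preadipocyte libraries. Among the near-identical copies, Gm28661, the copy of mt-Co2, had 1295 to 2363 counts in adipocyte libraries and 201 to 402 in high-fat preadipocyte libraries, and its summed count was 1.04 times that of mt-Co2. For Gm10925 and mt-Atp6 this ratio was 1.32, for Gm28437 and mt-Co3 0.895, for Gm10222 and mt-Nd4l 0.860, and for Gm28438 and mt-Nd3 0.241. The listed nuclear copies were called higher in adipocytes at 9 of 9 genes, against 27.7% of the genes tested, with a median log2 fold change of 3.05. Gm13339, a partial copy of mt-Nd2, changed by 3.69 ± 0.79 and Gm28437 by 3.50 ± 0.25. Which of the paired genes a read came from cannot be told from the counts. The levels and fold changes of mt-Co2, mt-Atp6, mt-Co3, mt-Nd3 and mt-Nd4l are therefore uncertain. The same limit holds for mt-Nd4 and mt-Co1 over the 63.6 and 31.3% of their bases that are covered.

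Most mitochondrial mRNAs held parts of the mitochondrial mRNA counts that overlapped between the fractions, while those of mt-Nd2, mt-Co2, mt-Atp6 and mt-Co3 did not. The 7 mRNAs with most counts, mt-Co1, mt-Cytb, mt-Nd1, mt-Nd2, mt-Nd4, mt-Nd5 and mt-Nd6, made 99.5 to 99.8% of mitochondrial mRNA counts in each library. mt-Co1 held 36.8 to 49.2% in adipocytes and 41.1 to 49.9% in high-fat preadipocytes, and mt-Cytb 10.9 to 18.6% in adipocytes and 15.01 to 17.7% in preadipocytes. The part of mt-Nd2 was larger in each adipocyte library, 10.6 to 12.6%, than in any high-fat preadipocyte library, 6.95 to 9.73%. Among the repeated genes, 3 showed the same order at a small scale. mt-Co2 held 0.104 to 0.150% in adipocytes and 0.0680 to 0.0900% in preadipocytes, mt-Atp6 0.0909 to 0.122% in adipocytes and 0.0649 to 0.0841% in preadipocytes, and mt-Co3 0.109 to 0.181% in adipocytes and 0.0656 to 0.0982% in preadipocytes. These genes were picked after their values were seen, so no test is given.

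The nuclear genes whose products sit in the same complexes rose with the mitochondrial mRNAs. Of the nuclear subunits of complexes I, III, IV and V, 71 were tested and 71 were higher in adipocytes, against 27.7% of the genes tested. Their log2 fold changes were 0.73 to 3.22, with a median of 2.32. Examples are Ndufb3 and Ndufb9 of complex I, at 3.09 ± 0.23 and 3.01 ± 0.21, Cyc1, which is cytochrome c1 of complex III, at 3.22 ± 0.22, and Cox8a of complex IV, at 2.83 ± 0.24. Uqcrq of complex III, Cox6b1 of complex IV, and Atp5o and Atp5g3 of ATP synthase changed by 2.97, 2.68, 2.82 and 2.58. Complex II, which has no mitochondrial gene, was higher at 4 of 4 subunits, with Sdhb at 2.71 and Sdhc at 2.54. The counts of mitochondrial mRNA divided by those of the nuclear subunits came to 5.63 ± 1.83 in adipocytes (SD, n = 6) and 4.89 ± 1.39 in high-fat preadipocytes (SD, n = 7), a difference of 0.743 within the spread (two-sided exact permutation test, p = 0.408). Leaving out 1 library moved it between 0.258, without control adipocyte library 3, and 1.26, without control adipocyte library 1.

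The lists that follow stand against 27.7% called higher and 34.8% called lower over the 18194 genes tested. The proteins of the mitochondrial ribosome were higher at 77 of 77 tested genes, with a median log2 fold change of 1.91. Mrpl12 and Mrps34 led, at 3.27 ± 0.24 and 3.08 ± 0.24. Translation factors were higher at 11 and lower at 1 of 14, the lower being Lars2, which is also on the next list. Taco1, which promotes the making of the mt-Co1 protein, led at 2.93 ± 0.29, and the elongation factor Tufm followed at 2.21 ± 0.17. The enzymes that load amino acids on mitochondrial tRNAs were higher at 14 and lower at 1 of 17. Pars2, for proline, and Fars2, for phenylalanine, changed by 2.55 ± 0.52 and 1.77 ± 0.19. Lars2, for leucine, fell by 1.22 ± 0.35 on the log2 scale and did not pass in the control libraries alone (edgeR, adjusted p = 0.0653). In high-fat preadipocytes Lars2 ran from 623 CPM in stress library 4 to 2212 CPM in stress library 2. Rows of nuclear rRNA genes held 0.175% of counts in the first and 0.618% in the second. In adipocytes its highest value, 908 CPM, was in control library 3, where they held 0.227%. The part of these rows in the Lars2 counts was not tested. Of 29 genes for processing, stability and decay of mitochondrial RNA, 23 were higher and 0 lower, with Slirp at 2.29 ± 0.38 and Trmu, which modifies tRNAs, at 2.22 ± 0.22. Lrpprc, the partner of Slirp, averaged 78.0 ± 41.3 CPM in adipocytes (SD, n = 6) and 27.4 ± 3.42 CPM in high-fat preadipocytes (SD, n = 7), a log2 fold change of 1.44 ± 0.22.

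Of the 9 tested genes of the transcription machinery 5 were higher and 0 lower, with a median log2 fold change of 0.53. Over the genes tested 27.7% were called higher and 34.8% lower. Polrmt, the polymerase, averaged 35.5 ± 16.7 CPM in adipocytes (SD, n = 6) and 11.1 ± 2.79 CPM in preadipocytes (SD, n = 7), a log2 fold change of 1.67 ± 0.25, and the elongation factor Tefm changed by 2.54 ± 0.27. Tfam, which packs mitochondrial DNA and starts its transcription, averaged 21.1 ± 7.004 CPM in adipocytes and 18.3 ± 2.68 CPM in preadipocytes and did not pass (log2 fold change 0.19 ± 0.21, edgeR, adjusted p = 0.447). Within the control libraries the value for Tfam was -0.13. Of 15 genes for replication and upkeep of the DNA, 6 were higher and 1 lower, against 27.7% and 34.8% of the genes tested. Atad3a, a membrane ATPase, and Top1mt, a topoisomerase, changed by 1.81 and 1.56. Polg2, the accessory subunit of the DNA polymerase, fell by 1.67 ± 0.32. Twnk, the helicase, had a log2 fold change of 0.41 ± 0.23 that did not pass (edgeR, adjusted p = 0.123).

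Of 13 regulators of mitochondrial number 5 were higher and 5 lower, against 27.7% higher and 34.8% lower over the genes tested. The nuclear receptors Esrrg and Ppara changed by 3.39 ± 0.58 and 2.47 ± 0.52, where Ppara did not pass in the control libraries alone (1.31, edgeR, adjusted p = 0.0713). The deacetylase Sirt1 and the coactivator Pprc1 fell by 1.497 ± 0.199 and 1.47 ± 0.20. The coactivator Ppargc1a, known for driving mitochondrial genes, had 0.258 to 9.498 CPM in adipocytes and 0 to 9.95 CPM in high-fat preadipocytes and did not pass (log2 fold change 1.24 ± 1.11, edgeR, adjusted p = 0.345). Its value was -1.19 within the control libraries and 3.28 within the stress libraries, the second with an adjusted edgeR p of 0.0194. As an interaction over the 14 high-fat libraries the difference between them was 4.397 ± 1.547 and did not pass (edgeR, adjusted p = 0.736). Of 10 genes for the removal of mitochondria (mitophagy), 7 were higher and 0 lower, led by Bnip3 at 4.55 ± 0.26 and Optn at 2.51 ± 0.18.

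The rRNAs held 3.51, 5.88 and 3.51% of mitochondrial counts in the stress adipocyte libraries and 10.04, 6.47 and 8.39% in the control adipocyte libraries, so that the groups did not overlap. The means were 4.30 ± 1.37% in stress adipocytes and 8.30 ± 1.79% in control adipocytes (SD, n = 3 each), and the two-sided exact permutation test gave p = 0.1, the smallest that 3 against 3 allows, and 0.4 after adjustment. Leaving out 1 library at a time moved the difference between -4.92 and -3.13 percentage points. The part of mt-Nd6 in mitochondrial mRNA showed the same order, 2.33, 2.48 and 2.13% in stress adipocytes and 3.57, 2.72 and 3.35% in control adipocytes, again without overlap and with p = 0.1 in the exact permutation test. In the adipocytes mt-Rnr2 had a log2 fold change of -1.10 ± 0.49 under stress, with an adjusted edgeR p of 0.9996, and mt-Nd6 one of -0.52 ± 0.40. Control adipocyte libraries 1 and 3, with the largest rRNA and mt-Nd6 parts of that group, are also those that sampled rare transcripts least well. Without them, an alternative chosen after seeing the data, the differences were -2.17 percentage points for the rRNA part and -0.41 points for the mt-Nd6 part, with 1 control library left. In stress adipocyte libraries 1, 2 and 3 rows of nuclear rRNA genes held 0.179, 0.515 and 0.139% of counts. In control adipocyte libraries 1, 2 and 3 these rows held 0.287, 0.324 and 0.227%, and their part in the differences was not tested.

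**Figure D5:**
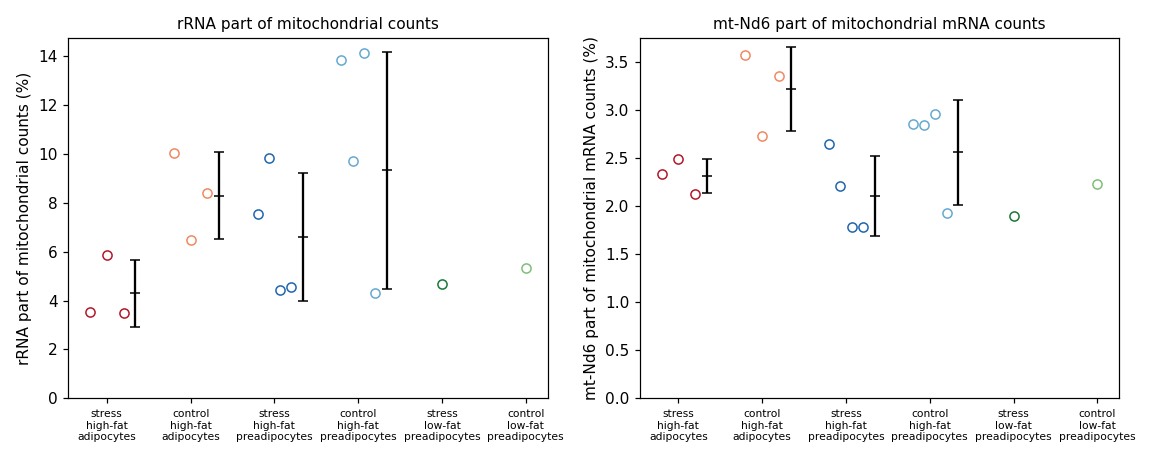
Left, rRNA as a part of mitochondrial counts (%); right, mt-Nd6 as a part of mitochondrial mRNA counts (%), per library (circles) in the 6 groups, with mean and SD as black marks where a group has more than 1 library (the near-identical control preadipocyte libraries averaged first). In both panels the stress adipocyte libraries lie below the control adipocyte libraries, and the preadipocyte groups overlap.

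In preadipocytes the same measures overlapped between stress and control. The rRNA part was 7.56, 9.85, 4.43 and 4.56% in stress and 13.8, 9.73, 14.1 and 4.29% in control high-fat preadipocytes, a mean difference of -2.74 percentage points (exact permutation p = 0.514). The mt-Nd6 part was 2.65, 2.20, 1.78 and 1.78% in stress and 2.85, 2.84, 2.96 and 1.93% in control libraries (difference -0.454 points, exact permutation p = 0.286). Leaving out 1 library moved the difference in the rRNA part between -5.26 points, without control library 4, and -2.01 points. For the mt-Nd6 part it ran from -0.769 points, again without control library 4, to -0.312 points. Among the 10 preadipocyte libraries the 4 with the lowest rRNA part, stress 3 and 4, control 4 and the low-fat stress library, were also the 4 with the lowest mt-Nd6 part, 1.78 to 1.93%. Rows of nuclear rRNA genes held 0.139 to 0.618% of counts in the 16 libraries, and their part in these values was not tested.

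Stress against control changed no mitochondrial gene past the threshold in either fraction. In high-fat preadipocytes 26 members passed the filter, 0 were called by edgeR, 1 had an unadjusted p under 0.05, and DESeq2 called 0. Over the 16810 genes tested 0.0% were called by edgeR and 1010 had an unadjusted p under 0.05. Of the 26, 24 had negative log2 fold changes, with a median of -0.32 against 0.01 over the genes tested. The median was -0.53 without stress library 1, -0.17 and -0.20 without stress libraries 3 and 4, and -0.21 without control library 2. Without stress library 1, 10 members and 1701 of 17162 genes tested had an unadjusted edgeR p under 0.05, and 0 members were called. mt-Rnr2 and mt-Rnr1 had -0.98 ± 0.50 and -0.78 ± 0.44, mt-Nd6 -0.53 ± 0.30 and mt-Co1 -0.19 ± 0.20, each with an adjusted edgeR p of at least 0.8. The 1 gene under 0.05 was mt-Nd4l, at -1.52 ± 0.58 (edgeR, adjusted p = 0.8), and it came to -0.59 without control preadipocyte library 1. Each stress library lay below each control library for this 1 member, a pattern seen in 1.39% of genes tested; 0 members lay above throughout, against 1.22% of genes. The mitochondrial share averaged 1.74 ± 0.480% in stress preadipocytes (SD, n = 4) and 2.20 ± 0.168% in control preadipocytes (SD, n = 3), a difference of -0.466 percentage points (two-sided exact permutation test, p = 0.229, where 0.0571 is the smallest possible). Stress preadipocyte libraries 3 and 4, the lowest in mitochondrial share, held 6083 and 6556 CPM of macrophage markers, against 1213 and 2137 CPM in the other stress libraries and 1129 to 2940 CPM in the control libraries. Endothelial markers had negative log2 fold changes under stress at 8 of 8 genes, 7 of them with an unadjusted edgeR p under 0.05 and 0 called. The part of these cell types in the share was not tested.

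In adipocytes 30 members passed the filter, 0 were called by edgeR, 4 had an unadjusted p under 0.05 and DESeq2 called 0. EdgeR called 0.0% of 14485 genes tested, of which 417 had an unadjusted p under 0.05. The 4 members were mt-Rnr2 and the tRNAs mt-Tc, mt-Tn and mt-Tw, for tryptophan. mt-Tw had 16, 49 and 23 counts in stress adipocytes and 62, 112 and 98 counts in control adipocytes, a log2 fold change of -1.86 ± 0.68 (edgeR, adjusted p = 0.9996). mt-Tw and mt-Ty, for tyrosine, were lower in each stress library than in any control library, a pattern seen in 2.93% of genes tested; 0 members lay above throughout, against 4.13% of genes. mt-Tc had -1.54 ± 0.60 and mt-Tn -1.16 ± 0.50, and for each the highest library was control adipocyte library 3, at 210 and 50.7 CPM. Among the large mRNAs the estimates lay on both sides of 0, with mt-Cytb at 0.23 ± 0.36, mt-Nd1 at 0.11 ± 0.38, mt-Nd4 at -0.01 ± 0.34 and mt-Co1 at -0.23 ± 0.42. The median over the 30 was -0.32, against -0.01 over the genes tested. That of the members came to 0.05 without control adipocyte library 3 to -0.79 without stress adipocyte library 2, and to -0.17 and -0.18 without stress adipocyte libraries 1 and 3. The mitochondrial share averaged 8.45 ± 1.61% in stress adipocytes and 8.63 ± 2.50% in control adipocytes (SD, n = 3 each), a difference of -0.185 percentage points that was smaller than the spread (two-sided exact permutation test, p = 1.0). It was 1.11 points without control adipocyte library 3, -1.38 and -0.287 points without control libraries 1 and 2, -1.115 points without stress library 2, and 0.331 and 0.230 points without stress adipocyte libraries 1 and 3. The thermogenic adipocyte markers summed to 288, 640 and 389 CPM in stress adipocytes and 65.5, 150 and 29.9 CPM in control adipocytes, with positive log2 fold changes at 8 of 8 genes, 7 of them with an unadjusted edgeR p under 0.05 and 0 called; their part in the mitochondrial values was not tested.

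The stress effect in adipocytes and that in preadipocytes were compared by an interaction term over the 14 high-fat libraries. Of the 30 members tested 0 were called by edgeR, 1 had an unadjusted p under 0.05 and DESeq2 called 0. EdgeR called 0.0% of 18194 genes, of which 1223 had an unadjusted p under 0.05. The 1 member was mt-Nd4l, at 1.91 ± 0.78 (edgeR, adjusted p = 0.736), and 1.004 without control preadipocyte library 1. mt-Rnr1 and mt-Rnr2 had -0.05 ± 0.67 and -0.14 ± 0.75, and the median over the 30 was -0.02. With 1 library left out that median ran from -0.54, without stress adipocyte library 2, to 0.40, without control adipocyte library 3.

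High-fat against low-fat diet was compared in preadipocytes, with 8 high-fat and 2 low-fat libraries. The mitochondrial share was 1.35 to 2.42% on the high-fat diet, and 1.74% in the stress and 1.48% in the control library on the low-fat diet. The mean was 1.94 ± 0.432% on the high-fat diet (SD, n = 7) and 1.61 ± 0.185% on the low-fat diet (SD, n = 2), a difference of 0.328 percentage points (two-sided exact permutation test, p = 0.5) that came to 0.1975 points without the control low-fat library. By gene, 29 members were tested, 0 were called by edgeR and 0 by DESeq2, and 2 had an unadjusted p under 0.05. EdgeR called 0.0% of 20217 genes, of which 3063 had an unadjusted p under 0.05. Of these 29, 28 had positive log2 fold changes, with a median of 0.47 against 0.04 over the genes tested. For 0 members did all high-fat libraries lie above (6.68% of genes tested) or below (7.87%) both low-fat libraries. mt-Rnr2 and mt-Rnr1 had 1.06 ± 0.58 and 0.98 ± 0.52, and the mRNAs ran from 0.17 for mt-Co1 to 0.51 for mt-Nd3. The 2 under 0.05 were tRNAs with few counts: mt-Ts2, for serine, had 10 to 43 counts on the high-fat diet and 5 and 11 on the low-fat diet, and mt-Tq, for glutamine, had 0 to 12 counts on the high-fat diet and 0 in both low-fat libraries. Over the nuclear subunits of complexes I, III, IV and V, 63 of 71 had positive values, with a median of 0.35 and 0 called. Macrophage markers had positive values at 9 of 10 genes, 5 of them with an unadjusted edgeR p under 0.05, while mature adipocyte markers were positive at 9 of 10 with a median of 1.04 (4 under 0.05). Progenitor markers were negative at 9 of 10 (3 under 0.05) and erythroid markers at 5 of 5 (3 under 0.05). Genes under 0.05 were 3063 of the 20217 tested, and 0 genes of these 4 lists were called. Their part in the diet values was not tested.

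On the low-fat diet there was 1 library for each early life group, so no test was made. The mitochondrial share was 1.74% in the stress library and 1.48% in the control library, with exact binomial 95% intervals of 1.73 to 1.75% and 1.47 to 1.48% that cover counting error only. The rRNA part was 4.70% in the stress library and 5.33% in the control library, and the mt-Nd6 part 1.89% in the stress library and 2.23% in the control library. Both shares lay within the range of the high-fat preadipocyte libraries.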

How the data were processed

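The authors deposited raw read counts and FPKM values per gene for 16 libraries. Per the submitters' processing notes, the tools were STAR 2.6.1d, edgeR 3.24.3 and DESeq2 1.20.0, with the builds GRCm38 and mm10. The sources used here do not state the counting program, its strand setting or what was done with multiply mapped reads. Groups were taken from the labels. The members and lists were chosen with earlier results of these data known. The 13 mRNAs and 2 rRNAs were described one by one, tRNAs by range with the 3 of highest mean CPM, and nuclear lists by counts with the 2 largest changes in each direction past the threshold plus, whatever their values, Polrmt, Tfam, Lrpprc, Twnk and Ppargc1a.

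Counts were tested over all genes with edgeR 4.0.16 in R 4.3.3 (filterByExpr, TMM, robust quasi-likelihood F test, Benjamini-Hochberg at 0.05), with early life treatment as a covariate between fractions and diets; a fold change's SE is its size over the root of F. Single values per library used exact permutation tests (16 in the family), and under the replicate block an exact sign-flip test over same-numbered pairs. The code was tested on simulated data. Alternatives were DESeq2 1.42.0 size factors and Wald test, scaling on other than MT genes, other filters and limma 3.58.1 on log2(FPKM + 1). Further ones were a replicate block, the near-identical pair as 1 library and leaving out libraries. Library depth was 14182130 to 23368821 counts. Nuclear copies were found with BLAST+ 2.17.0 (at least 85% identity over 60 bases) among GENCODE M21 transcripts on GRCm38, the source of the sequences. The lengths of 37 of 37 members matched it. Matches to genes on a further chromosome, which is neither chromosome 1 nor chromosome 4, were left out, so the set of copies may be incomplete. The near-identical copy Gm10222 was found by this search after the lists were made.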

Additional observations from a re-analysis of the deposited data

Results flagged for a closer look

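In control high-fat preadipocytes, 7 of the 70 sets of 4 libraries examined, over 30 genes and 5 summary measures in the stress and the control group, had 1 library far from the other 3, with a gap past Dixon's 95% critical value; chance gives about 1 in 20. All 7 are in the control group, where libraries 1 and 3 are near-identical, so the group holds 3 independent libraries at most. mt-Nd4l was at 15.01 CPM in library 1, against 2.96 to 3.87 in the others, and mt-Ti at 0.597 CPM in library 1, against 0.0885 to 0.140. Control library 4 was low in mt-Rnr1, at 295 CPM against 746 to 780, in mt-Nd3, at 5.31 CPM against 9.74 to 10.4, and in the mt-Nd6 part of mitochondrial mRNA, at 1.93% against 2.84 to 2.96%. Control library 2 was high in mt-Atp6, at 18.01 CPM against 11.33 to 12.03, and in mt-Nd4, at 1767 CPM against 1317 to 1369. In library 4 the mesothelial markers summed to 225 CPM, against 808 to 1191 CPM in the other control libraries. Mural cell markers were at 92.2 against 269 to 278 CPM, and T and NK cell markers at 14.6 against 27.0 to 33.6 CPM. Erythroid markers went the other way, at 2380 against 1451 to 1635 CPM. Nuclear rRNA rows held 0.189% of its counts, against 0.372 to 0.579% in the other control libraries. The part of these in the values above was not tested.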

How the results depend on the processing

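Under 25 alternatives for adipocytes against preadipocytes the members called ran from 25 in the stress libraries alone to 31, and the median log2 fold change from 2.35 to 2.82. In the other comparisons 0 members were called under each alternative run. DESeq2's Wald test called 72 genes for stress in preadipocytes, 19 for stress in adipocytes, 23 for the interaction and 611 for diet, where the main edgeR fits called 0. Some edgeR alternatives called genes too. For stress in adipocytes they called 51 with no filter and 9 without control adipocyte library 2, which gave 3 for the interaction. For diet 62 were called without control high-fat preadipocyte library 4, and for stress in preadipocytes 1 with the replicate block. The mitochondrial share's difference between fractions, 6.43 points in control and 6.71 in stress libraries alone, and that of the tRNA part, 0.312 and 0.141 points, no longer passed there, where fewer libraries were tested. For stress in adipocytes the share's difference was 0.333 with deposited FPKM, 0.0199 without control libraries 1 and 3, and -1.38 to 1.11 with 1 library left out; the cause was not tested. With 1 library left out, the tRNA part under stress in preadipocytes ran from -0.0238 to 0.00334 and the ratio of mitochondrial mRNA to nuclear subunits under stress in adipocytes from -2.28 to 0.232. In the control libraries alone 3 genes of the transcription list and 6 of the biogenesis list were called, and Ppargc1a and Tfam had -1.19 and -0.13. Deviations of same-numbered libraries correlated at -0.342 to 0.279 over 6 fraction pairs, at -0.503 to -0.0335 over the 3 stress pairs in adipocytes and, all positive, at 0.0557 to 0.603 over the 4 in preadipocytes; since 1 of these 4 was under 0.1, the numbers were not taken as pairs. With the replicate number as a block the rRNA part differed between fractions by -3.62 points over the 6 same-numbered pairs. An exact sign-flip test gave p = 0.0312, the smallest that 6 pairs allow, with control preadipocyte libraries 1 and 3 kept as separate samples. By gene, the block fits called 30 members between fractions and 0 in the stress comparisons. Genes with few counts, such as mt-Atp8, mt-Nd4l and most tRNAs, have less certain values, and the reason for their low counts was not tested.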
